A study of Gallus gallus with 12 samples.

Results

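Anti-Müllerian hormone (AMH) and 4 genes of sex steroid synthesis, STAR, CYP11A1, CYP17A1 and CYP19A1, were followed in chicken embryonic gonads as all probe sets whose annotated gene symbol was 1 of these 5. They were 9 of the 37693 chicken probe sets tested, and 5 of the 13008 genes with a symbol of their own. AMH had 4 probe sets, CYP19A1 had 2, and STAR, CYP11A1 and CYP17A1 had 1 each.

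The data are 12 Affymetrix chicken genome arrays of White Leghorn chickens, 1 array per sample, in 4 groups of 3 independent samples. GSC are gonadal stromal cells and PGC are primordial germ cells. Both came by magnetic sorting (MACS) from gonads at day 6.5 of incubation, and each sample pooled 100 embryos of mixed sex, so that male and female levels cannot be told apart. A GSC sample held 9000000 cells and a PGC sample 270000. CEF are embryonic fibroblasts of day 6.5, pooled from 5 embryos and cultured to passage 2, with 6000000 cells per sample; the submitters describe their origin once as the embryonic body and once as the muscular area. Blastoderm samples pooled 5 stage X embryos of freshly laid eggs, with 530000 cells. No genetic change or drug treatment is described for any group, and the sources used here do not name the sort's antibody.

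AMH is a secreted hormone of the TGF-β family that drives regression of the Müllerian ducts, and in the chicken both sexes express it in the embryonic gonad, males more strongly. Steroid synthesis starts when STAR carries cholesterol to the inner mitochondrial membrane, where CYP11A1 cleaves its side chain to give pregnenolone. CYP17A1 and enzymes of the HSD3B and HSD17B families turn this into androgens, and CYP19A1, the aromatase, turns androgens into oestrogens. In the chicken, aromatase marks the female gonad from the onset of sexual differentiation.

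All levels below are log2 values as the authors deposited them, so a difference of 1 is a 2-fold change. A level under 3.61 is called background: 99% of the array's 746 viral and reporter probe sets lie below it. A difference was called when limma's adjusted p, over all 37693 probe sets of a comparison, was below 0.05.

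By the brightest probe set of each, all 5 genes were called higher in both gonadal cell groups than in fibroblasts or blastoderm. The difference was least for STAR in PGC against blastoderm (log2 difference 1.11, with overlap). Other AMH probe sets did not share the difference from blastoderm. Brightness was the mean over all 12 arrays, gonadal ones included. In CEF and blastoderm the AMH probe set GgaAffx.22254.1.S1_at was the brighter, at 5.82 and 7.32 against 3.29 and 4.17. Within the gonad, the mean of the stromal arrays was called higher than that of the germ cell arrays for CYP19A1, CYP17A1, CYP11A1 and STAR, by 2.52- to 3.06-fold. Arrays of the 2 groups overlapped for CYP17A1 and CYP11A1, and also for AMH, whose 1.58-fold difference was not called. Of the 5 genes, 4 were thus called higher in GSC, where 13.5% of all genes were. The median log2 difference was 1.35 over the 5 genes and 0.02 over all genes. The germ cell arrays nonetheless all held these genes above background, from 4.29 for STAR to 12.17 for AMH. By replicate number the difference varied, and for the brightest probe set of each of the 5 genes it was largest at replicate 1. The labels do not say that these numbers pair samples. In RNA from sorted cell pools, fewer cells of a type and less RNA per cell cannot be told apart.

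**Figure D1:**
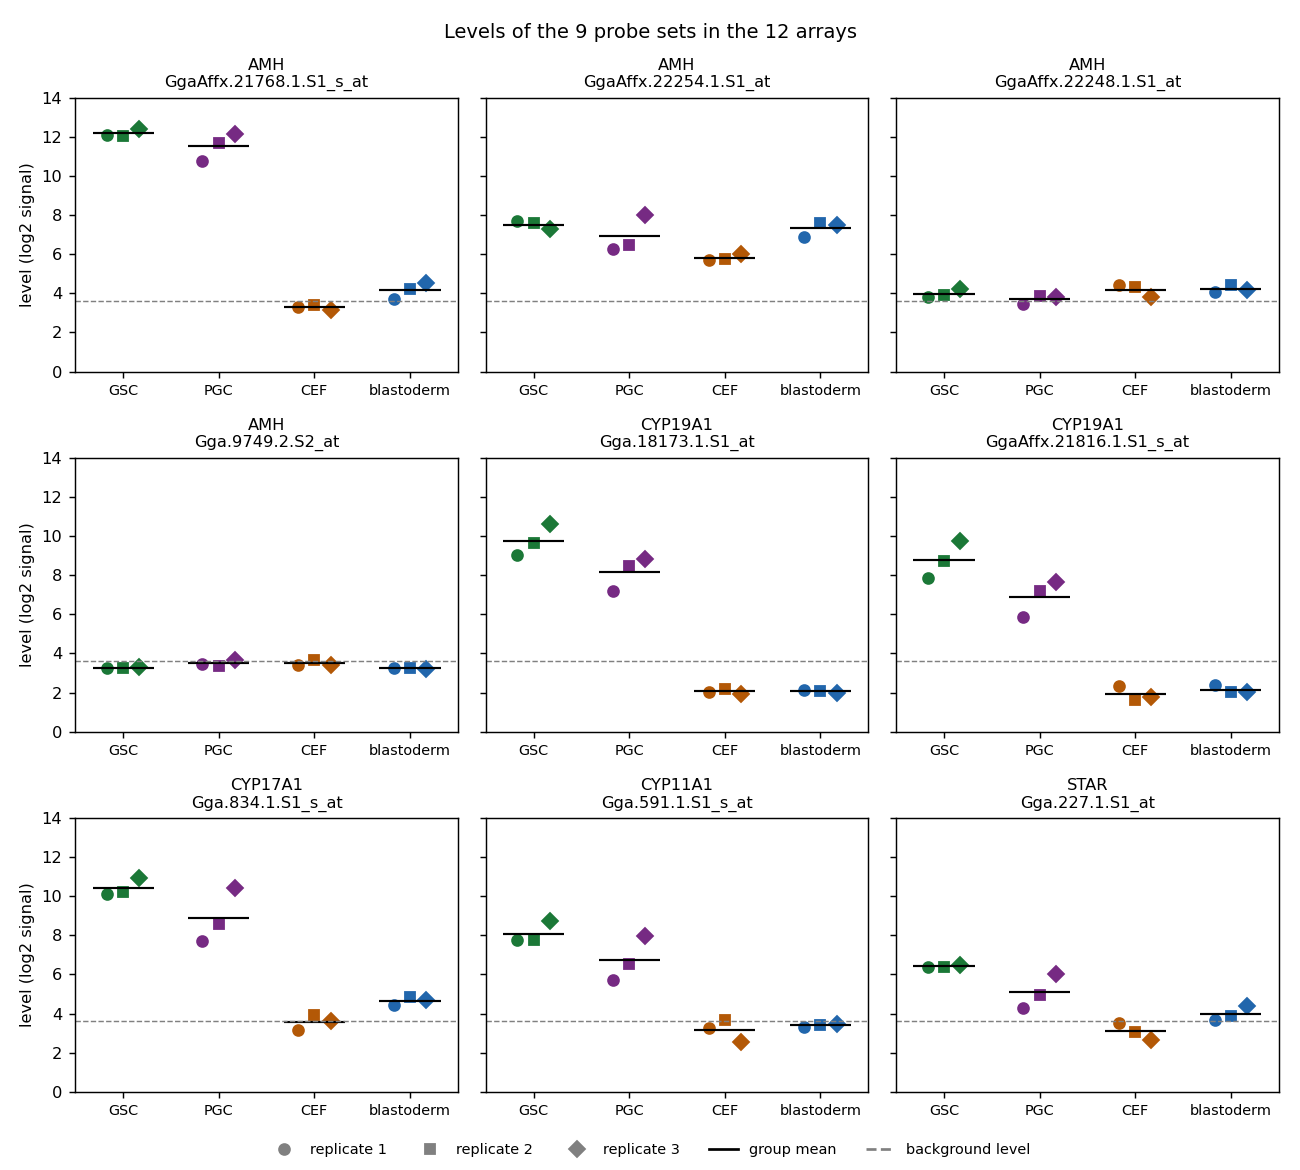
Log2 level of the 9 probe sets on the 12 arrays, 1 panel per probe set, with a symbol for each replicate, a bar for the group mean and a dashed line at the background level of 3.61. GSC and PGC arrays lie far above CEF and blastoderm arrays for CYP19A1, CYP17A1, CYP11A1 and the brightest AMH probe set, while for STAR the lowest PGC array (4.29) lies under the highest blastoderm array (4.36).

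STAR, the cholesterol carrier at the start of the pathway, measured 6.36, 6.40 and 6.49 in GSC replicates 1, 2 and 3. It measured 4.29, 4.95 and 6.01 in the PGC replicates. The 3 stromal arrays lay close together and above every germ cell array. The mean was 6.42 ± 0.07 in GSC and 5.08 ± 0.86 in PGC (SD, n = 3), a log2 difference of 1.33 (SE 0.34, 95% interval 0.61 to 2.06, limma adjusted p = 0.0097). Set against the PGC array of the same number, the GSC array was higher by 2.06, 1.46 and 0.48.

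CYP11A1, the side-chain cleavage enzyme, measured 7.76, 7.74 and 8.76 in the GSC replicates. It measured 5.72, 6.53 and 7.95 in the PGC replicates. The groups overlapped, because PGC replicate 3 stood above GSC replicates 1 and 2. The mean was 8.09 ± 0.58 in GSC and 6.73 ± 1.13 in PGC (SD, n = 3), a log2 difference of 1.35 (SE 0.44, 95% interval 0.43 to 2.28, limma adjusted p = 0.035). By replicate number the difference was 2.04, 1.21 and 0.81.

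CYP17A1, whose hydroxylase and lyase activities lead to the androgens, measured 10.10, 10.24 and 10.93 in the GSC replicates. Its PGC levels were 7.73, 8.58 and 10.41. PGC replicate 3 again reached the stromal range, above GSC replicates 1 and 2. The mean was 10.42 ± 0.45 in GSC and 8.91 ± 1.37 in PGC (SD, n = 3), a log2 difference of 1.52 (SE 0.46, 95% interval 0.54 to 2.50, limma adjusted p = 0.0257). By replicate number the difference was 2.37, 1.66 and 0.53.

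CYP19A1, the aromatase, was represented by 2 probe sets that agreed in order and direction. The brighter, Gga.18173.1.S1_at, measured 9.05, 9.65 and 10.63 in the GSC replicates and 7.18, 8.47 and 8.84 in the PGC replicates. Every stromal array lay above every germ cell array, although the closest pair was only 0.21 apart. The mean was 9.78 ± 0.80 in GSC and 8.16 ± 0.87 in PGC (SD, n = 3), a log2 difference of 1.61 (SE 0.38, 95% interval 0.80 to 2.43, limma adjusted p = 0.00582). By replicate number the difference was 1.88, 1.17 and 1.79. The last value sets the highest GSC array against the highest PGC array, and the labels do not say that the numbers pair samples. The other probe set, GgaAffx.21816.1.S1_s_at, measured 7.88, 8.73 and 9.75 in GSC against 5.85, 7.18 and 7.68 in PGC. Its log2 difference was 1.88 (SE 0.44, limma adjusted p = 0.00502), also without overlap. By replicate number it was 2.03, 1.55 and 2.07, largest at replicate 3.

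AMH had 4 probe sets that disagreed. The brightest, GgaAffx.21768.1.S1_s_at, measured 12.13, 12.08 and 12.40 in the GSC replicates and 10.77, 11.69 and 12.17 in the PGC replicates. These levels approach the highest value on any GSC array, 12.89. PGC replicate 3 stood above GSC replicates 1 and 2. The mean was 12.20 ± 0.18 in GSC and 11.54 ± 0.71 in PGC (SD, n = 3). The log2 difference of 0.66 (SE 0.28, 95% interval 0.06 to 1.26) had an unadjusted p of 0.0332 in limma and an adjusted p of 0.117, and was not called. By replicate number it was 1.36, 0.39 and 0.23.

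A second AMH probe set, GgaAffx.22254.1.S1_at, measured 7.68, 7.61 and 7.27 in GSC and 6.29, 6.48 and 8.03 in PGC, and the groups overlapped (log2 difference 0.59, limma adjusted p = 0.267). It also measured 7.32 ± 0.38 in blastoderm and 5.82 ± 0.15 in CEF (SD, n = 3), where the brightest probe set was near or below background. Against blastoderm it was called neither in GSC (log2 difference 0.20, limma adjusted p = 0.706) nor in PGC (-0.39, adjusted p = 0.398). The third, GgaAffx.22248.1.S1_at, had group means of 3.72 to 4.21, and the fourth, Gga.9749.2.S2_at, of 3.25 to 3.5. The last 2 probe sets were called in none of the 6 comparisons between groups. AMH results below are those of the brightest probe set unless another is named.

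Counted by probe sets, 5 of the 9 were called higher in GSC than in PGC, where 11.1% of all probe sets were, and none was called lower, where 10.8% were. Both CYP19A1 probe sets and that of STAR had no overlap between GSC and PGC arrays with GSC higher, 3 of 9, where 18.5% of all probe sets had none. The unequal changes of the genes were also set against each other array by array. The AMH change was smaller than that of CYP19A1 by 0.96 and smaller than that of STAR by 0.67, each without overlap between groups. Each gave p = 0.1 in an exact two-sided permutation test, the smallest that 3 against 3 arrays can give, and an adjusted p of 0.5 over the 10 pairs of genes. The other 8 pairs had p of 0.3 or more in the same test.

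The germ cell arrays were not alike in these genes. PGC replicate 1 was the lowest and PGC replicate 3 the highest germ cell array for all 5 genes. That order held in 45.7% of the probe sets called higher in GSC (1904 of 4166), and in 21.7% of all 18929 probe sets with a GSC mean above background. Relative to the GSC mean, PGC replicate 3 was lower by only 0.02 for CYP17A1 and 0.03 for AMH, but by 0.94 for CYP19A1. PGC replicate 1 was lower by 1.43 for AMH and by 2.12 to 2.69 for the other 4 genes. Among stromal arrays, GSC replicate 3 was the highest for all 5 genes, which held for 33.9% of the probe sets called higher in GSC.

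Several marker lists differed between the germ cell arrays too. All counts of called markers stand against 13.5% of all genes called higher in GSC than in PGC and 16.8% called lower. The 13 germ cell markers, listed with earlier results of these data known, were all called lower in GSC. Their median level was 8.77, 8.38 and 7.87 in PGC replicates 1, 2 and 3 against 4.09 to 4.18 in GSC, so each PGC array was enriched in these markers. In summed linear signal the germ cell list ranged from 358 to 389 in GSC and from 3981 to 7392 in PGC, with TDRD5, MAEL, SYCP3 and CLDN3 at background in GSC. Of 12 gonadal supporting cell markers, 6 were called higher in GSC and none lower. Their median level in PGC was 5.13, 5.02 and 6.30, against 6.30 to 6.67 in GSC, with summed signals of 465 to 1038 and 1440 to 1739. FGF9 was at background in both groups and CITED2 in PGC. The part of supporting cells among the sorted germ cells in these results was not tested.

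The endothelial and fibroblast lists, like the 5 genes, were lowest in PGC replicate 1 and highest in PGC replicate 3. The medians of the erythroid (6.48, 7.07 and 7.95), kidney (6.82, 6.98 and 7.13) and interrenal lists had that order too. Of 14 endothelial markers 7 were called higher in GSC and none lower, with a median level of 4.37, 4.67 and 5.80 in the PGC replicates against 6.23 to 6.31 in GSC. Their summed signal was 416 to 1072 in PGC and 1151 to 1436 in GSC, with ROBO4 at background in GSC. Of 13 fibroblast and matrix markers 10 were called higher in GSC and none lower, with a median of 7.01, 7.56 and 8.32 in PGC against 9.30 to 9.79 in GSC. Their summed signal was 3106 to 7196 in PGC and 10151 to 11806 in GSC, with THY1 and ACTA2 at background in GSC. Correlation with the mean GSC array, across all probe sets, was 0.935, 0.944 and 0.966 for PGC replicates 1, 2 and 3. The part of these cells in the results was not tested.

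The interrenal gland, the avian adrenal cortex, lies beside the gonad and uses the same early steroid enzymes. Of its 8 measured markers 2 were called higher in GSC, 1 lower and 5 were not called, with summed signals of 2476 to 2814 in GSC and 1840 to 2419 in PGC. The list median was 4.96, 5.55 and 6.48 in PGC replicates 1, 2 and 3, against 6.09 to 6.16 in GSC. Higher in GSC were HSD3B1 (8.69 against 6.78 in PGC) and NR0B1 (8.09 against 6.81), and lower was FDX1 (7.34 against 8.57). DLK1 (3.80 in GSC and 3.82 in PGC) and AKR1B1 (10.78 and 10.40) were not called. In CEF and blastoderm DLK1 was below background, at 2.21 and 2.40, and AKR1B1 measured 9.75 and 9.01. The corticotropin receptor MC2R and its partner MRAP were at background in all 4 groups. CYP21A1, the 21-hydroxylase of corticosteroid synthesis, measured 4.94 ± 0.06 in GSC and 4.81 ± 0.53 in PGC (SD, n = 3), close to its 4.8 in blastoderm and 4.53 in CEF. The kidney and mesonephros list ran opposite to the steroid genes, with 5 of 9 markers called lower in GSC and 2 higher.

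**Figure D2:**
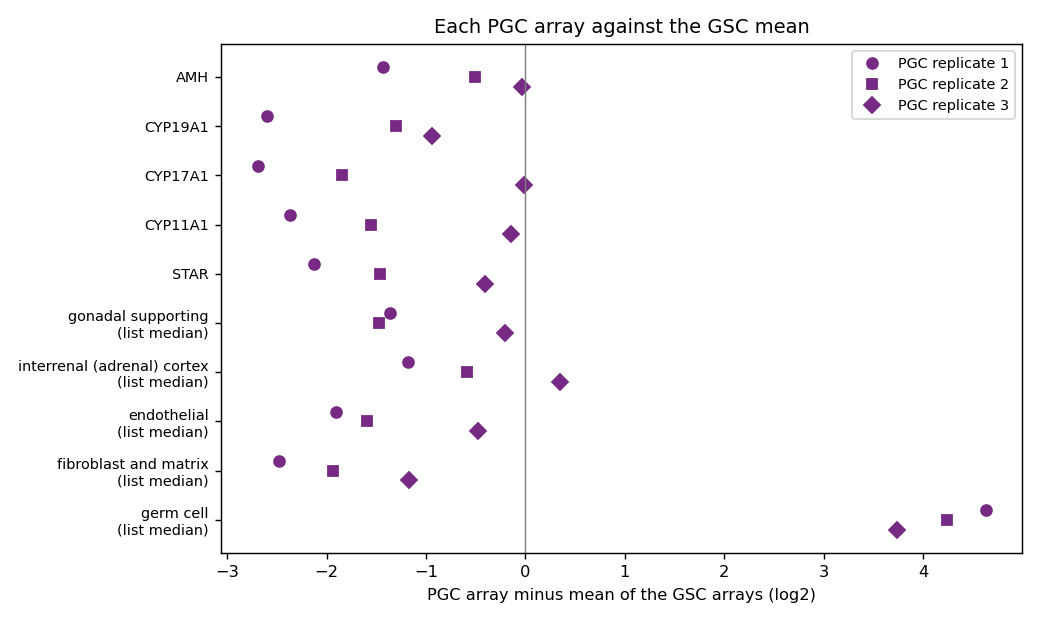
Log2 level of each PGC array minus the mean of the 3 GSC arrays, for the 5 genes and for the median of 5 marker lists; the 3 symbols are PGC replicates 1, 2 and 3 and the vertical line marks the GSC mean. PGC replicate 3 lies nearest to the GSC mean for all 5 genes (0.94 to 0.02 below it) and has the smallest excess of germ cell markers (3.74 against 4.63 for replicate 1).

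The called differences between GSC and PGC depended on single arrays. Without PGC replicate 1, the log2 difference of CYP19A1 was 1.12 and was still called (limma adjusted p = 0.0348). The other 3 calls ended, with 0.93 for CYP17A1 (adjusted p = 0.159), 0.85 for CYP11A1 (0.206) and 0.94 for STAR (0.0638), and AMH fell to 0.27. Without PGC replicate 3, all 5 genes were called, AMH at 0.97 (adjusted p = 0.0101) and CYP17A1 at 2.27. Of the steroid genes, CYP19A1 and STAR were called without GSC replicate 3, while CYP17A1 (1.26, adjusted p = 0.127) and CYP11A1 (1.02, 0.178) were not. Leaving out GSC replicate 2 or PGC replicate 2 also left CYP19A1 and STAR as the called genes of the 5. The second AMH probe set was called without PGC replicate 3 (1.14, adjusted p = 0.000904).

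**Figure D3:**
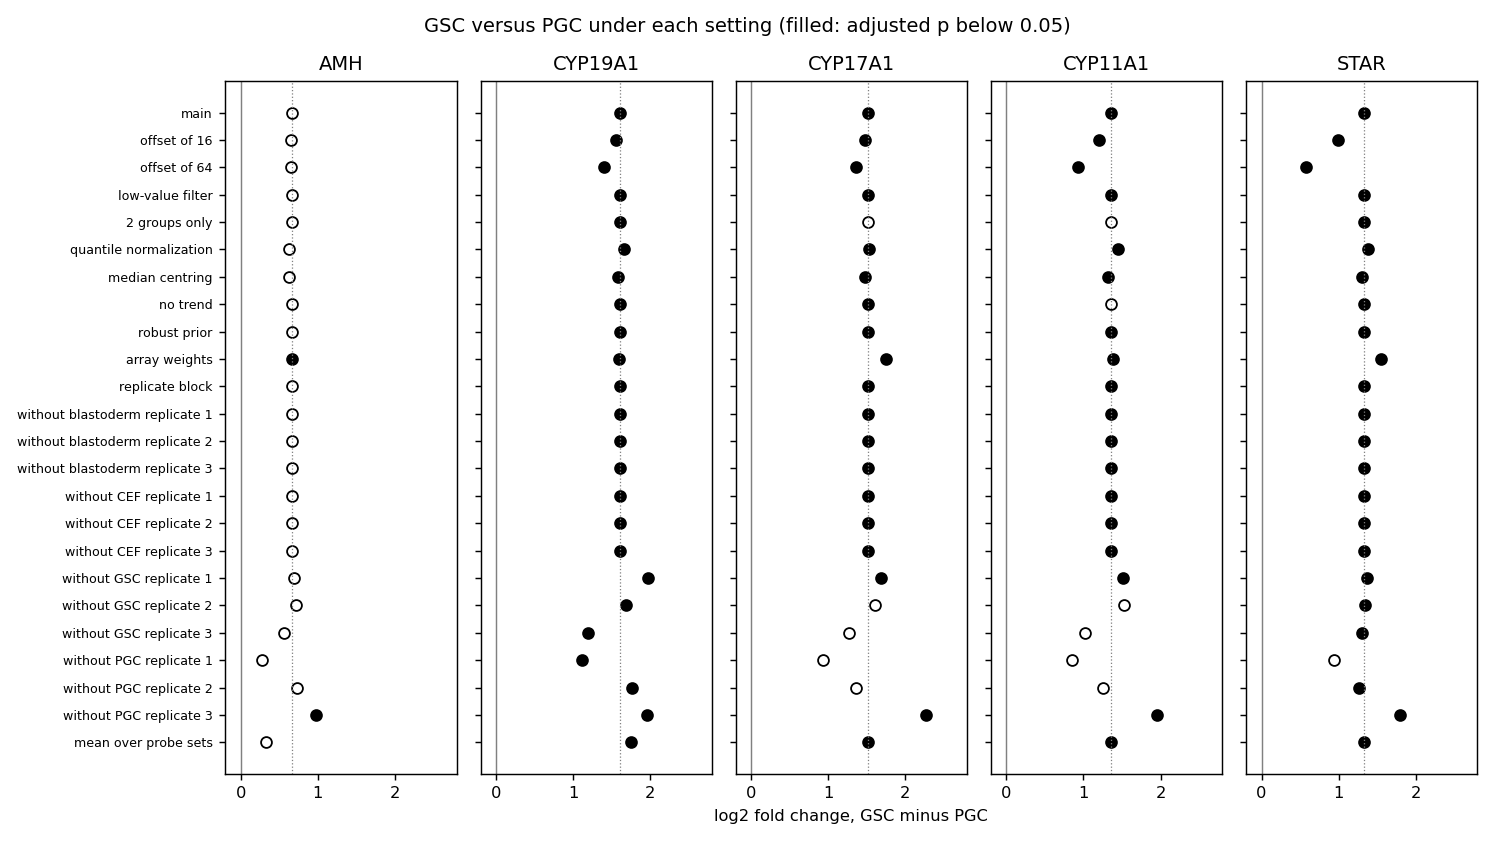
Log2 difference between GSC and PGC of the 5 genes in the main fit and under 23 other settings, with filled points for adjusted p below 0.05, a dotted line at the main value and a solid line at 0. CYP19A1 is filled in every setting shown, from 1.12 to 1.98 with 1 array left out, and AMH is filled in 2, with array weights and without PGC replicate 3.

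Against fibroblasts and blastoderm, AMH, CYP19A1, CYP17A1 and CYP11A1 differed by more than they did between GSC and PGC. STAR did so too, except between PGC and blastoderm. All 5 were called higher in GSC than in CEF (22.3% of all genes were) and than in blastoderm (24.8%). All 5 were also called higher in PGC than in CEF (27.7%) and than in blastoderm (26.3%). Of the 9 probe sets, 7 were called higher in GSC than in CEF (17.8% of all were) and 7 in PGC (19.6%). Against blastoderm, 6 were called higher in GSC (18.5%) and 6 in PGC (18.2%). These 4 comparisons share the GSC, PGC, CEF and blastoderm arrays among them.

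AMH measured 3.29 ± 0.14 in CEF, below background on all 3 arrays, and 3.72, 4.23 and 4.55 in the blastoderm replicates. GSC stood at least 386-fold and PGC at least 245-fold above CEF, counting CEF at the background level on each array. Against blastoderm the log2 difference was 8.04 for GSC (SE 0.28, limma adjusted p = 5.96e-12) and 7.38 for PGC (adjusted p = 2.44e-11). The arrays of the gonadal and the other groups were far from overlapping.

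CYP19A1 was below background on every CEF and blastoderm array, at 2.06 ± 0.14 and 2.05 ± 0.05 (SD, n = 3). Against either group the level was at least 71.9-fold higher in GSC and at least 23.5-fold higher in PGC, and limma's adjusted p was at most 4.12e-09. CYP17A1 was detected in blastoderm, at 4.42, 4.83 and 4.71, and on 1 of the 3 CEF arrays, at 3.16, 3.94 and 3.6. Its log2 difference from CEF, where 2 of the 3 arrays were below background, was 6.85 in GSC and 5.34 in PGC, and from blastoderm 5.77 and 4.25 (SE 0.46 each, limma adjusted p at most 1.69e-06).

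CYP11A1 was below background on all blastoderm arrays (3.39 ± 0.09) and above it on 1 of 3 CEF arrays (3.28, 3.65 and 2.53). It was at least 22.3-fold higher in GSC and at least 8.73-fold higher in PGC than in blastoderm, and its log2 difference from CEF, where 2 of the 3 arrays were below background, was 4.93 in GSC and 3.58 in PGC. STAR was below background on all CEF arrays (3.54, 3.08 and 2.66), at least 6.999-fold lower than in GSC and at least 2.78-fold lower than in PGC. In blastoderm STAR measured 3.65, 3.90 and 4.36, which overlapped with PGC. The log2 difference between PGC and blastoderm was 1.11 (limma adjusted p = 0.017), and it was not called without blastoderm replicate 1 (0.95, adjusted p = 0.0734), blastoderm replicate 2 (1.08, 0.0516) or PGC replicate 3 (0.65, 0.0783).

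The order of group means was thus GSC, PGC, blastoderm, CEF for AMH, CYP17A1 and STAR, where the CYP17A1 and STAR means of blastoderm and CEF did not differ by a called amount. Nor did the AMH means of GSC and PGC. The second AMH probe set had another order, GSC, blastoderm, PGC, CEF (7.52, 7.32, 6.93 and 5.82), with no called difference among its GSC, blastoderm and PGC means. Its blastoderm mean was called higher than its CEF mean, without overlap (limma adjusted p = 0.00191). It and the brightest AMH probe set were the 2 of 9 called higher in blastoderm than in CEF, where 20.6% of all probe sets were. For CYP19A1 and CYP11A1 blastoderm and CEF both had means below background and no order between them. By the brightest probe set of each gene, only AMH was called between blastoderm and CEF. It was 1 of 5 genes, where 27.2% of all genes were called higher in blastoderm. By that probe set AMH was at least 1.47-fold higher in blastoderm (fitted log2 difference 0.88, limma adjusted p = 0.0203). That call ended without blastoderm replicate 2 (0.85, adjusted p = 0.0566), blastoderm replicate 3 (0.68, 0.101) or CEF replicate 3 (0.81, 0.0604). Adding an offset of 16 or 64 on the linear scale before the logarithm gave AMH differences of 0.41 (adjusted p = 0.252) and 0.16 (0.684). Such offsets also shrank the differences of the gonadal groups from CEF and blastoderm, with 19 and all 20 of 20 moved by over 1.5-fold, and all 20 remained called under both.

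**Figure D4:**
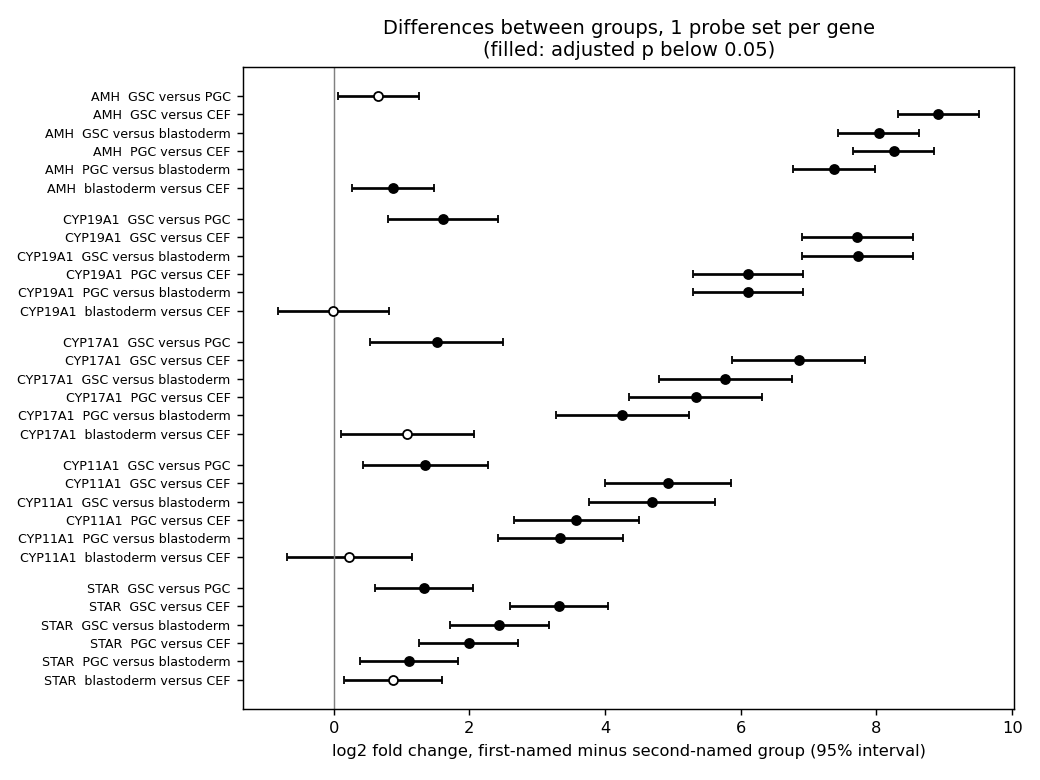
Log2 difference of the 5 genes, each by its brightest probe set, in the 6 comparisons between groups, with 95% intervals from limma and filled points for adjusted p below 0.05. Points are fitted values, which are not bounds where CEF or blastoderm lay below background on all arrays. Differences between GSC and PGC lie between 0.66 and 1.61, and those of AMH from blastoderm at 8.04 and 7.38.

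A wider list of steroid enzymes and electron donors, not limited to the steps from cholesterol to oestrogens described above, did not move as a group. Of 31 genes listed as steroidogenic enzymes and electron donors, the 5 genes above left out, 22 were measured; 6 were called higher in GSC than in PGC (13.5% of all genes were), 6 lower (16.8% were) and 10 did not pass, with a median log2 difference of -0.04. HSD3B1, which turns pregnenolone into progesterone, measured 8.26, 8.51 and 9.29 in GSC and 5.50, 7.01 and 7.84 in PGC. Its groups did not overlap and it rose by 1.90 (SE 0.42, limma adjusted p = 0.00333), or 1.26 without PGC replicate 1. HSD17B1, which reduces oestrone to oestradiol, measured 7.57, 7.83 and 7.91 against 5.57, 6.09 and 7.15. It was higher in GSC by 1.5 (SE 0.31, adjusted p = 0.00195), also without overlap. AKR1D1, a 5β-reductase of steroids, was higher by 1.64, and CYP1B1, which hydroxylates oestrogens, by 1.31, with 2 of the 3 PGC arrays below background.

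The genes called lower in GSC included both enzymes and electron donors. HSD3B7, a bile acid enzyme, was below background on all GSC arrays and measured 5.68, 6.77 and 6.33 in PGC, at least 6.27-fold higher. FDX1, the ferredoxin that passes electrons to CYP11A1, was lower in GSC by 1.23 (7.34 against 8.57, limma adjusted p = 2.98e-05). CYP1A1 and the oestrogen sulfotransferase SULT1E1 were lower by 1.26 and 1.16. So the redox partner of CYP11A1 and CYP11A1 itself differed in opposite directions. HSD3B2 had no matched probe set and is an alias of HSD3B1 in RefSeq.

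The counts of the lists that follow stand against the same 13.5% of all genes called higher in GSC and 16.8% called lower. Of 13 measured genes of cholesterol delivery, 4 were higher in GSC, 1 lower and 8 did not pass (median log2 difference -0.02). The cholesterol exporter ABCA1 was higher by 1.51, the Golgi and mitochondrial adaptor ACBD3 by 0.88, and the lysosomal cholesterol transporters NPC1 and NPC2 by 0.87 and 0.64. VDAC1, a channel of the outer mitochondrial membrane, was lower by 1.62. Of 19 measured genes of cholesterol synthesis, 3 were higher in GSC, none lower and 16 did not pass (median 0.27), a share higher in GSC near that 13.5%: LSS by 0.81, HSD17B7 by 0.75 and MSMO1 by 0.67. That count was 1 without GSC replicate 1, GSC replicate 2, PGC replicate 1 or PGC replicate 2, and 6 without PGC replicate 3.

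The AMH type II receptor AMHR2 had no matched probe set. Of 12 measured genes of AMH receptors and signalling, 4 were higher in GSC, 1 lower and 7 did not pass (median log2 difference 0.36). The receptor-activated SMAD5 was higher by 1.15 (SE 0.23, limma adjusted p = 0.00159). The BMP and TGF-β target ID2 was higher by 0.86, and the inhibitory SMAD6 and SMAD7 by 0.61 and 0.55. The type I receptor BMPR1B was lower by 1.09. The count of 4 was 1 without GSC replicate 2, PGC replicate 1 or PGC replicate 2.

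Receptors of gonadal hormones had 5 of 17 measured genes higher in GSC, 2 lower and 10 that did not pass (median log2 difference 0.26). ESR1, the oestrogen receptor α, measured 5.28, 6.19 and 5.69 in GSC and was below background on all PGC arrays (3.02, 3.40 and 3.46). It was at least 4.33-fold higher in GSC (limma adjusted p = 1.69e-06), counting PGC at the background level. The prolactin receptor PRLR was higher by 2.001, the FSH receptor FSHR by 1.77 and the LH receptor LHCGR by 0.91. ESR2 was below background in GSC and 3.51 to 3.87 in PGC, at least 1.08-fold higher in PGC (limma adjusted p = 1.89e-05), and the orphan receptor ESRRG differed by -0.63. The count of 5 was 3 without PGC replicate 1, and the count of 2 was 1 without GSC replicate 2 or PGC replicate 2.

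Among 41 measured regulators of AMH and steroidogenic genes, 18 were higher in GSC (13.5% of all genes were), 3 lower (16.8% were) and 20 did not pass (median log2 difference 0.58). NR5A1 (SF-1), the nuclear receptor that activates AMH and steroid enzyme genes, measured 8.22, 8.19 and 7.97 in GSC and 5.94, 6.02 and 7.46 in PGC. Its groups did not overlap and it was higher by 1.65 (SE 0.34, limma adjusted p = 0.00203). PGC replicate 3 was again nearest to the stromal arrays. GATA4, a gonadal partner of NR5A1, was higher by 2.54, or 1.96 without PGC replicate 1 and 3.39 without PGC replicate 3. The gonadal homeobox factor LHX9 was higher by 2.33, and PDGFRA, a receptor of interstitial cells, by 2.57 with 2 of the 3 PGC arrays below background. The GATA4 cofactor ZFPM2, below background on all PGC arrays, was at least 3.44-fold higher in GSC.

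FOXL2, which activates aromatase in the ovary, measured 6.40, 6.67 and 6.48 in GSC and 5.49, 5.19 and 6.62 in PGC. Its difference of 0.75 was not called (limma adjusted p = 0.0907), and was 1.18 and called without PGC replicate 3. SOX9, the Sertoli cell factor that activates AMH in mammals, differed by 0.05 (adjusted p = 0.937). DMRT1, the avian testis-determining gene, which germ cells express too, measured 10.66 to 10.75 in GSC and 10.58 to 10.76 in PGC, a difference of 0.04 (adjusted p = 0.918). Lower in GSC were SOX3, which fell by 5.04, and the prostaglandin synthase PTGDS, which fell by 2.55. The hedgehog inhibitor HHIP was below background on all GSC arrays and at least 1.61-fold higher in PGC.

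Several of the smaller calls named here ended when 1 array was left out. NPC2, LSS, HSD17B7, ID2, SMAD6, SMAD7, LHCGR and ESRRG were each not called without at least 1 of GSC replicate 2 and PGC replicate 2. Their highest adjusted p with an array left out ranged from 0.0557 for SMAD6 to 0.221 for HSD17B7. SMAD7 lost its call in 9 of 12 such fits, HSD17B7 in 7, NPC2 in 5, ID2, LHCGR and LSS in 4 each, and SMAD6 and ESRRG in 3 each. The other list genes named with a called difference kept it in all 12.

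**Figure D5:**
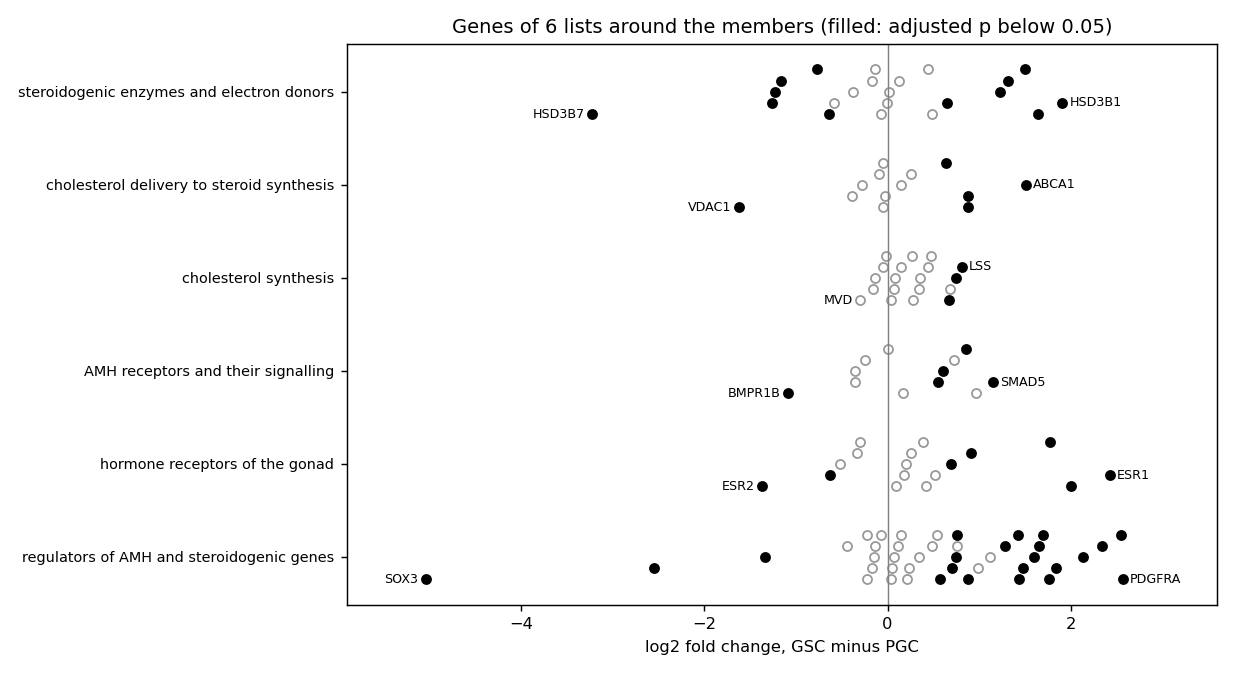
Log2 difference between GSC and PGC of every measured gene in the 6 gene lists, 1 row per list, with filled points for adjusted p below 0.05 and the gene farthest to each side named. The enzyme list holds as many genes called lower as higher (6 each), from HSD3B7 (fitted value -3.22, with GSC below background) to HSD3B1 at 1.90, and the regulators reach from SOX3 at -5.04 to PDGFRA at 2.57.

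The genes most like each of the 5 over the 12 arrays were found by Pearson correlation among 8568 genes. For AMH they were DACH1 (r = 0.996), SLC6A2, PLEKHH1, ZNF532 and HBAD (0.992). For CYP19A1 they were CDH5 (0.995), FRMD3, CADM1, ENPEP and PRLR (0.99). For CYP17A1 they were SLC18A3 (0.99), NELL2, NR3C2, ABLIM1 and DEPTOR (0.987). CYP11A1 was nearest to HPX (0.992), PRLR (0.992), DEPTOR (0.99), HSD3B1 and CDH5 (0.987 each), and STAR to ZNF385B (0.984), ALDH2, BARX2, TGFBR2L and CD55 (0.976). Of these, HSD3B1 was among the listed enzymes and interrenal markers, PRLR and NR3C2 among the hormone receptors, CDH5 among the endothelial and HBAD among the erythroid markers. The 5 genes correlated with each other at 0.899 to 0.988, and at 0.596 to 0.890 after group means were removed. These values describe 12 arrays in 4 separate groups, with both high groups taken from the same tissue.

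Array-wide measures of RNA and labelling had unequal group means as well. The 3′ minus 5′ difference of actin and GAPDH controls was 0.00 ± 0.08 in GSC, 0.23 ± 0.15 in PGC, 0.34 ± 0.33 in CEF and 0.55 ± 0.23 in blastoderm (SD, n = 3). In PGC replicates 1, 2 and 3 that difference was 0.35, 0.28 and 0.07, so replicate 3 was nearest to the GSC mean. Poly-A spike-in controls averaged 4.83 ± 0.75 in GSC and 7.43 ± 0.30 in PGC (SD, n = 3). Between GSC and PGC, both measures gave p = 0.1 in an exact two-sided permutation test (adjusted p = 0.167). With 3 against 3 arrays that test can give no smaller p. Arrays correlated at 0.972 to 0.994 within groups and at 0.841 to 0.965 between them. All 13 fibroblast markers were above background in CEF (list medians 11.24 to 11.66), and of 4 measured blastoderm markers 3 were above it in blastoderm, with SOX2 below. The part of the RNA and spike-in differences in the results was not tested.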

How the data were processed

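Per the file itself, the authors deposited 1 table of log2 values for 38535 probe sets on 12 arrays. Scaling between arrays was kept; the submitters' processing notes name MAS5, with no version or role, and the sources used here do not say how the log2 scale was reached. Manufacturer's controls (96) and viral or reporter probe sets (746) were left out. Symbols came from the array's annotation, updated through RefSeq; 27166 probe sets had 1 symbol. A gene's brightest probe set on average stood for it, _x_at ones as a last choice. Differences of group means were tested in R 4.3.3 by limma 3.58.1 (lmFit, eBayes with trend) in a fit to 12 arrays with 8 residual degrees of freedom, two-sided, with Benjamini-Hochberg adjustment over 37693 probe sets in each of 6 comparisons. The scripts were tested on simulated data. There, 5 of 50 planted differences between GSC and PGC were recovered at 1.5-fold, 23 of 50 at 2-fold and 49 of 50 at 4-fold. In the simulation only the planted probe sets differed between groups, and all groups had the same spread. In the real comparison 21.9% of probe sets were called, so these shares are not its recovery rates. A missing call for a small difference, such as that of AMH, does not show equal levels. Array number limits the precision. The limma p-values set each difference of means against the spread between samples, estimated from the 12 arrays and the trend over probe sets.

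The members and lists were chosen with earlier results of these data known. Named are all member probe sets, up to 4 called genes per list and direction with the largest difference, the 5 most similar genes per member (highest group mean above background, range over arrays of at least 1), and NR5A1, FOXL2, SOX9, DMRT1, AMHR2, HSD17B1, HSD3B1, HSD3B2, ESR1, ESR2, FSHR and LHCGR; 1 further gene of the rule is not reported here. The 23 alternatives cover offsets, filtering, averaging a gene's probe sets, scaling, model settings, a replicate block and leaving out each array. The chromaffin list (7 measured) had 1 marker higher in GSC and 1 lower, the erythroid list (7) 3 and 0, and the blastoderm list (4) 0 and 3. Of all genes, 13.5% were called higher and 16.8% lower. No sequences or coordinates are given.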

Additional observations from a re-analysis of the deposited data

How the results depend on the processing

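No called difference of the 5 genes changed sign under the alternatives. With 1 array left out, the differences of SOX9 (-0.21 to 0.53), DMRT1 (-0.01 to 0.08) and CYP21A1 (-0.07 to 0.43), called in none of these fits, changed sign. Array weights brought AMH past the threshold (0.67, limma adjusted p = 0.0186) and raised the probe sets called higher and lower in GSC than in PGC from 4166 and 4083 to 7460 and 6370. Fitting these 2 groups only ended the calls of CYP11A1 (1.35, adjusted p = 0.0634) and CYP17A1 (1.52, 0.0541), which left 2 of the 5 genes called, and dropping the trend ended that of CYP11A1 (1.35, 0.0549). With 1 array left out, the log2 difference ranged from 0.27 to 0.97 for AMH, 1.12 to 1.98 for CYP19A1, 0.93 to 2.27 for CYP17A1, 0.85 to 1.96 for CYP11A1 and 0.94 to 1.79 for STAR, member genes called from 1 to 5, and probe sets called from 2675 to 5117 higher and from 2912 to 5215 lower. An offset of 64 lowered STAR from 1.33 to 0.57 and kept its call. Between blastoderm and CEF, CYP17A1 (1.08, adjusted p = 0.0763) and STAR (0.88, 0.0533) were called under some alternatives and not in the main fit. The cause of these changes was not tested.

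Deviations of GSC and PGC arrays from their group means correlated at 0.21, -0.11 and -0.00 for the same number, and at -0.20 to 0.23 for different numbers. The labels do not say whether the numbers pair the samples, and correlations from 3 arrays per group cannot settle it. A replicate block kept every call of the 5 genes in this comparison (AMH 0.66, adjusted p = 0.0585; CYP11A1 1.35, adjusted p = 0.0285). Signals under 3.61 cannot be told from background, which limits differences from CEF and blastoderm.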

Other observations

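Genes of cholesterol synthesis, the source of the steroid precursor, were mostly higher in the cultured fibroblasts than in the gonadal groups or blastoderm. Of 19 measured genes, 14 were called lower in GSC than in CEF and none higher (20.2% and 22.3% of all genes were called lower and higher). Against CEF, 14 were also called lower in PGC (22% of all genes were) and 16 in blastoderm (24% were). FDPS, which makes farnesyl diphosphate, measured 9.04 in CEF against 6.07 in GSC, a log2 difference of -2.97 (limma adjusted p = 2.25e-08). INSIG1, a sterol-sensing regulator of the pathway, measured 9.39 against 6.87, a difference of -2.52. GSC in turn were called higher than blastoderm for 11 of the 19 genes, where 24.8% of all genes were. CEF differ from the other groups in having been cultured in serum-containing medium to passage 2, so culture and cell type cannot be told apart.

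Some regulators of the gonadal genes were high in blastoderm, where STAR and CYP11A1 were near or below background. These genes were chosen after their values were seen. NR0B1, a repressor of NR5A1, measured 8.72 ± 0.20 in blastoderm and 8.09 ± 0.32 in GSC (SD, n = 3), and GATA4 6.27 ± 0.48 and 6.83. INHBA, the activin A subunit, measured 10.72 ± 0.17 in CEF (SD, n = 3) and 2.48 to 2.79, all below background, in the other 3 groups.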
